A study of Homo sapiens with 6 samples.

Results

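RGS1, GRASP, SYTL3 and YPEL4 are 4 genes, 3 of them known from signalling or membrane traffic, whose mRNA stood far higher in ME-1 leukaemia cells given AI-10-49 than in cells given solvent. They are 4 of the 6339 rows of the authors' table and were taken by symbol. They had been picked from the size of their rise in these same libraries, so the rise itself is described here and not tested. ME-1 is a single human acute myeloid leukaemia line with inv(16), the inversion that fuses CBFB to MYH11 and yields the protein CBFβ-SMMHC. Both groups were the same line cultured for 6 h, 3 libraries with DMSO, the solvent, and 3 with AI-10-49 at 1 µM, a compound that keeps CBFβ-SMMHC from binding RUNX1. The labels describe 3 independent experiments per treatment. All values are FPKM (fragments scaled to transcript length and library size), which allow levels of different genes to be set side by side.

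The proteins have different roles. RGS1 speeds GTP hydrolysis by Gi and Gq alpha subunits and so shortens signalling from chemokine receptors, which in leukocytes restrains migration. GRASP, whose current symbol is TAMALIN, is a PDZ scaffold that holds cytohesins, the exchange factors of ARF GTPases, near receptors such as the group 1 metabotropic glutamate receptors. It is unrelated to the Golgi stacking proteins GORASP1 and GORASP2, which share the abbreviation. SYTL3 is a synaptotagmin-like protein that binds RAB27 on secretory granules and phospholipid at the plasma membrane. YPEL4 belongs to the small, highly conserved zinc-binding Yippee-like proteins, whose molecular role is poorly known.

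The stretches of 250 bases before the RefSeq starts of 3 of the 4 genes (build GRCh38.p14) are shown as a description. The genes were chosen for their rise, so nothing about a shared control is read from the sequences. GRASP was not matched in that table. Capitals mark every match, on either strand, to 8 patterns: TATAAA, the core of the TATA box; TGACGTCA and its shorter form ACGTCA, bound by CREB and ATF proteins; TGANTCA, bound by AP-1; TGTGGT, bound by RUNX proteins; CACGTG, the E-box of MYC; TGATGCAA, bound by CHOP and ATF4 dimers; and the NF-kB site. These patterns were chosen with the sequences in view, so the shares over all windows are given for scale and are no test.
RGS1, chr1:192575523-192575772, plus strand: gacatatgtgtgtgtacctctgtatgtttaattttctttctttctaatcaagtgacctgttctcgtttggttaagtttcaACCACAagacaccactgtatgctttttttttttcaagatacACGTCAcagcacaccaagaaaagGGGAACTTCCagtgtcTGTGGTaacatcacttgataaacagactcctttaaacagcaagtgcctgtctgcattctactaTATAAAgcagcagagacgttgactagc
SYTL3, first listed start, chr6:158649804-158650053, plus strand: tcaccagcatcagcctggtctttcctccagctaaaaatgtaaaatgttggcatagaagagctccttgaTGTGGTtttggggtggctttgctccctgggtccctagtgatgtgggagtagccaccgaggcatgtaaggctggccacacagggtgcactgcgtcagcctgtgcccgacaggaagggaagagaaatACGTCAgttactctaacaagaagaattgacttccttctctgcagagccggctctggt
SYTL3, second listed start, chr6:158662697-158662946, plus strand: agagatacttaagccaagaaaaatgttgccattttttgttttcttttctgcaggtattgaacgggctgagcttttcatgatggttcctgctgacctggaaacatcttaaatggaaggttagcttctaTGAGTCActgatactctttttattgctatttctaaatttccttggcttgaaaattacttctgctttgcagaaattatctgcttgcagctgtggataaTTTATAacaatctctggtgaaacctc
YPEL4, chr11:57649913-57650162, minus strand: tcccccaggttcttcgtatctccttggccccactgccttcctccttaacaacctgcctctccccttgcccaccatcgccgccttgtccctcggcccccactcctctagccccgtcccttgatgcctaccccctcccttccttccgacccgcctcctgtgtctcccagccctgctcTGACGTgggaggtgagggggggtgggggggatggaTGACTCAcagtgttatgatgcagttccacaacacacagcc

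The pattern ACGTCA lay 129 bases before the RGS1 start, 57 bases before the first SYTL3 start and, on the other strand, 75 bases before the YPEL4 start. Of 35116 such RefSeq windows, 7.10% hold it. The full palindrome TGACGTCA was in none of the 4 windows and is in 1.65% of all. RGS1 alone held the NF-kB pattern (9.96% of all windows), and it held TGTGGT in 2 places, against 1 before the first SYTL3 start (10.98% of all windows). TGANTCA stood 40 bases before the YPEL4 start and 123 bases before the second SYTL3 start (6.57% of all windows). RGS1 had TATAAA 27 bases before its start (10.7% of all windows). The second SYTL3 start had it on the other strand, 26 bases before. Neither CACGTG (6.34%) nor TGATGCAA (0.772%) was found. A match says that these letters are there and nothing of binding. The windows differ in base composition, from 36.4% G and C at the second SYTL3 start and 39.2% at RGS1 to 52.4% at the first SYTL3 start and 63.2% at YPEL4, around a median of 58% over all windows.

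RGS1 read 4.16, 4.11 and 4.18 FPKM in DMSO replicates 1 to 3 and 46.8, 38.5 and 51.5 FPKM in AI-10-49 replicates 1 to 3. The DMSO libraries were nearly the same, and the AI-10-49 libraries were spread more widely, replicate 2 the lowest. The means were 4.15 ± 0.040 and 45.6 ± 6.58 FPKM (SD, n = 3), a ratio of 10.99. RGS1 had the highest FPKM of the 4 genes with AI-10-49, above 85.7% of tested rows, whereas with DMSO it was above 17.2%.

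GRASP read 1.26, 1.01 and 1.48 FPKM with DMSO and 24.2, 21.4 and 23.1 FPKM with AI-10-49. It was close to 1 FPKM in each DMSO library and above 20 in each AI-10-49 library. The means were 1.25 ± 0.24 and 22.9 ± 1.39 FPKM (SD, n = 3), a ratio of 18.3, which was the highest among the 4 genes. Because the DMSO level is low, the ratio is uncertain: it runs from 14.4, the lowest AI-10-49 library over the highest DMSO library, to 24.0, the reverse.

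SYTL3 read 3.63, 3.41 and 3.66 FPKM with DMSO and 33.9, 32.4 and 34.0 FPKM with AI-10-49. Both groups were tight, with a coefficient of variation of 3.85% and 2.73%, below the median over all tested rows (5.95% with DMSO and 8.03% with AI-10-49). The means were 3.57 ± 0.14 and 33.4 ± 0.91 FPKM (SD, n = 3), a ratio of 9.37.

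YPEL4 read 1.03, 1.14 and 0.729 FPKM with DMSO and 14.6, 13.1 and 13.1 FPKM with AI-10-49. Its mean was the lowest of the 4 genes in each group. With DMSO its libraries overlapped those of GRASP, being higher than GRASP in replicate 2, and its mean was above 2.74% of tested rows. A row was tested where its mean reached 1 FPKM in either group, which YPEL4 did through AI-10-49 alone. The means were 0.966 ± 0.21 and 13.6 ± 0.84 FPKM (SD, n = 3), a ratio of 14.1, and the ratio of single libraries ran from 11.5 to 20.0.

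**Figure D1:**
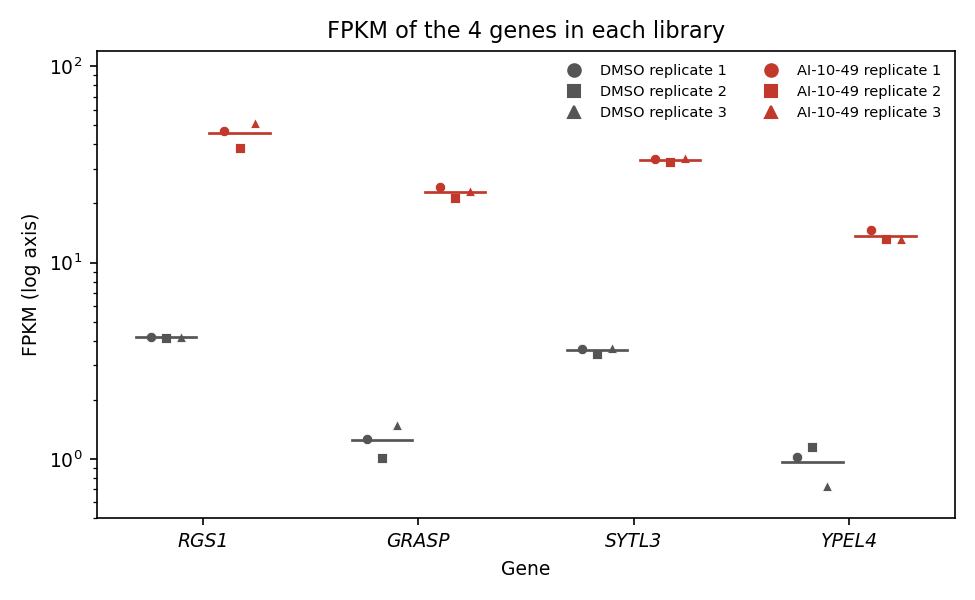
FPKM (log axis) of RGS1, GRASP, SYTL3 and YPEL4 in the 3 DMSO libraries (grey) and the 3 AI-10-49 libraries (red), with marker shape for the replicate number and horizontal lines for group means. In each gene the red points lie above the grey ones, and the means go from 0.966 to 4.15 FPKM with DMSO to 13.6 to 45.6 FPKM with AI-10-49.

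In all 4 genes every AI-10-49 library was above every DMSO library. That holds for 45.1% of the 6230 tested rows of this table, and since the genes were chosen for their rise nothing is read from it. The order of the 4 depended on the scale. On log2(FPKM + 1), where adding 1 damps the change of low genes, the log2 fold changes were 3.41 ± 0.09 (SE) for GRASP, 3.17 ± 0.09 for RGS1, 2.91 ± 0.06 for SYTL3 and 2.90 ± 0.09 for YPEL4. With 0.1 added in place of 1 they were 4.10 for GRASP, 3.70 for YPEL4, 3.42 for RGS1 and 3.19 for SYTL3. YPEL4 thus moved from the last place to the second. By difference in FPKM the order was another again, with RGS1 up by 41.5, SYTL3 by 29.9, GRASP by 21.6 and YPEL4 by 12.6 FPKM.

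Among all tested rows ranked by log2 fold change on the log2(FPKM + 1) scale, GRASP was 4th, RGS1 6th, SYTL3 11th and YPEL4 12th. The next row after YPEL4 was MAFF (2.89), which encodes a small MAF transcription factor, so no gap in the values set the 4 genes apart from the rows after them. By the plain ratio of mean FPKM, GRASP was 7th, YPEL4 13th, RGS1 21st and SYTL3 25th of 6229 rows.

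AI-10-49 replicate 2 stood apart in this table: it gave a lower value than replicate 1 and than replicate 3 in each of the 294 rows where these averaged 100 FPKM or more. Its highest value in a tested row was 159 FPKM, against 1843 FPKM in replicate 1 and 1877 FPKM in replicate 3. The 4 genes are below 100 FPKM. The replicate 2 value was 0.783 of the mean of replicates 1 and 3 in RGS1, 0.906 in GRASP, 0.949 in YPEL4 and 0.954 in SYTL3. Over the 3231 rows between 10 and 60 FPKM in replicates 1 and 3 the median of this ratio was 0.957, and 5% of rows were below 0.764. The RGS1 ratio was above that 5% point. RGS1, at 46.8 and 51.5 FPKM in replicates 1 and 3, lies high in this range, and rows of just its level were not set apart. Without that library the log2 fold changes were 3.28 for RGS1, 3.46 for GRASP, 2.94 for SYTL3 and 2.92 for YPEL4. The columns of the table sum to 190534 to 206024 FPKM with DMSO and to 129679 to 179571 FPKM with AI-10-49. Of 17 myeloid blast markers, 9 had a row, and their summed level was 740 to 842 FPKM with DMSO and 281 to 408 FPKM with AI-10-49. Of the 9, 1 rose, 7 fell and 1, SPI1, did not pass. Of all tested rows, 46.2% were higher and 49.1% lower at a limma adjusted p under 0.05. Among the 9 myeloid markers, the largest falls in mean FPKM were those of PRG2 (203.1 to 53.4) and CLC (134.6 to 20.3), both eosinophil genes. CEBPA (127.6 to 42.1) came after them. CD34 and MPO were not analysed here. Of 21 lymphoid, erythroid and stromal markers, 6 had a row, none at 0 in any library. Their summed level was 71.2 to 75.6 FPKM with DMSO and 32.5 to 34.7 FPKM with AI-10-49, and all 6 fell. CD3E and CD79A were tested through their DMSO means alone, so their calls could only be falls. Most of this sum came from the T cell gene CD3D and the B cell gene CD79B. In bulk RNA, fewer cells of a type and less RNA per cell cannot be told apart, and the part of these markers in the results was not tested.

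RGS1 is a member of a family of GTPase-activating proteins, of which 7 further genes were tested, out of 22 listed. With AI-10-49, 5 rose and 2 fell. The shares over all tested rows were 46.2% and 49.1%. Nearly every row differs between the groups, since the deposited rows seem to be a selection made on the same libraries, so a call here says little by itself. The median log2 fold change of the 7 genes was 0.75, against -0.28 over all tested rows. RGS13, a small RGS protein known from B cells and mast cells, went up from 0.303 ± 0.13 FPKM with DMSO to 5.18 ± 0.23 with AI-10-49 (SD, n = 3), by 2.25 ± 0.10 on the log2 scale (SE, limma adjusted p = 1.08e-09). RGS2, which acts mainly on Gq, rose from 4.08 ± 0.34 to 17.6 ± 0.58 FPKM (1.87 ± 0.07 SE, limma adjusted p = 1.94e-10). RGS13 and RGS9 had DMSO means under 1 FPKM and entered the test through their AI-10-49 means alone, so their calls could only be rises and support nothing. RGS16 changed by 1.16, RGS18 by 0.75 and RGS9 by 0.54. RGS19 fell by 0.83 and RGS14, which also binds RAP GTPases, by 0.43 on the log2 scale.

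The make-up of the measured RGS mRNA changed with this. With DMSO the order of mean FPKM was RGS19 (130.6), RGS18 (28.1), RGS14 (26.2), RGS1 (4.15), RGS2 (4.08), RGS16, RGS9 and RGS13. RGS18 and RGS14 overlapped in their libraries, and so did RGS1 and RGS2. With AI-10-49 the order was RGS19 (73.8), RGS18 (48.2), RGS1 (45.6), RGS14 (19.2), RGS2 (17.6), RGS16 (8.58), RGS13 (5.18) and RGS9 (1.73). RGS1 and RGS18 then overlapped, RGS18 at 48.8, 41.5 and 54.3 FPKM, as did RGS14 and RGS2. RGS1 made up 1.94% to 2.23% of the summed FPKM of the 8 genes in the DMSO libraries and 20.3% to 21.5% in the AI-10-49 libraries. The latter range includes AI-10-49 replicate 2 (20.4%), in which RGS19, part of the same sum, read 56.2 FPKM against 84.4 and 80.7 FPKM in replicates 1 and 3.

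RGS proteins act on G proteins and their receptors. Among 11 tested heterotrimeric G protein subunits, of 30 listed, 3 rose and 6 fell, and 2 did not pass (median log2 fold change -0.46, against -0.28 over all tested rows). The shares over all tested rows were 46.2% higher and 49.1% lower. GNAI1, an alpha subunit of the Gi class on which RGS1 acts, fell by 0.59 on the log2 scale, whereas GNAI3 of the same class rose by 0.40. GNB4 and GNG11, a beta and a gamma subunit, fell by 0.68 and 0.62. GNA11 of the Gq class changed by -0.52. GNA13, an alpha subunit of another class, rose by 0.70. GNAI2, at 205.6 ± 12.95 FPKM with DMSO and 134.9 ± 45.6 with AI-10-49 (SD, n = 3), and GNA15 did not pass. Without AI-10-49 replicate 2, 4 rose and 7 fell.

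Of 22 tested leukocyte receptors that couple to G proteins, of 51 listed, 14 rose, 7 fell and 1 did not pass (median 0.48, against -0.28). Over all tested rows, 46.2% were higher and 49.1% lower. S1PR1, the sphingosine 1-phosphate receptor that lets lymphocytes leave lymphoid tissue, rose from 2.09 ± 0.060 FPKM with DMSO to 11.6 ± 0.79 with AI-10-49 (SD, n = 3), by 2.02 ± 0.07 on the log2 scale (SE, limma adjusted p = 1.71e-10). FPR1 (1.91) and FPR2 (1.503), which encode receptors for bacterial formyl peptides, and the oxysterol receptor gene GPR183 (1.80) rose as well. P2RY2, a receptor for extracellular nucleotides, fell from 10.06 ± 0.085 FPKM with DMSO to 3.33 ± 0.38 with AI-10-49 (SD, n = 3), a change of -1.35 ± 0.08 (SE, log2). FPR2 and GPR132 entered the test through their AI-10-49 means alone, and PTAFR through its DMSO mean. The counts were the same without AI-10-49 replicate 2.

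GRASP binds cytohesins, and 23 genes of the cytohesin and ARF pathway were tested besides it, of 44 listed. Of these 13 rose, 9 fell and 1, ARF4, did not pass (median 0.32, against -0.28). Without AI-10-49 replicate 2, 14 rose and 9 fell. The shares over all tested rows were 46.2% higher and 49.1% lower. CYTIP, which encodes a scaffold of like build that also binds cytohesins in leukocytes, read 13.5, 13.03 and 15.2 FPKM with DMSO and 29.2, 26.4 and 28.5 FPKM with AI-10-49. It rose by 0.96 ± 0.07 (SE, log2, limma adjusted p = 8.63e-08), and its libraries did not overlap. The mean of GRASP was 1.25 FPKM against 13.9 for CYTIP with DMSO, and 22.9 against 28.0 with AI-10-49, where all 3 CYTIP libraries were still above the 3 GRASP libraries. Of the 4 cytohesin genes, CYTH1 (0.79), CYTH2 (0.51) and CYTH3 (0.42) rose and CYTH4 (-0.76) fell. GIT1, an ARF GTPase-activating protein, fell by 0.79 on the log2 scale, ARF3 by 0.72 and PSD4, an exchange factor of ARF6, by 0.68. ARAP3 was tested through its DMSO mean alone.

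SYTL3 works with RAB27, and 16 further genes of that secretion machinery were tested, of 37 listed. With AI-10-49, 11 rose and 5 fell (median 0.33, against -0.28). Over all tested rows, 46.2% were higher and 49.1% lower. RAB27A, the GTPase that tethers lytic and azurophilic granules, rose from 8.60 ± 0.49 FPKM with DMSO to 19.0 ± 0.80 with AI-10-49 (SD, n = 3), by 1.06 ± 0.07 on the log2 scale (SE, limma adjusted p = 1.52e-08). Its near relative RAB27B fell from 5.58 ± 0.47 to 3.85 ± 0.48 FPKM (-0.44 ± 0.09 SE, limma adjusted p = 0.000507). Of the 3 other tested synaptotagmin-like genes, SYTL2 (0.90) and SYTL1 (0.33) rose and SYTL4 (-0.44), tested through its DMSO mean alone, fell. STX4 and STX11, membrane fusion proteins, changed by 0.82 and 0.68, and RAB3GAP1 by 0.82. RAB3A, a GTPase of regulated secretion, fell from 5.62 ± 1.09 FPKM with DMSO to 1.01 ± 0.21 with AI-10-49 (SD, n = 3), a change of -1.71 ± 0.12 (SE, log2).

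By FPKM, SYTL3 was the third of the 4 analysed synaptotagmin-like genes with DMSO, after SYTL1 (34.2 ± 2.19, SD, n = 3) and SYTL2 (5.66 ± 0.24). With AI-10-49 it was the second, between SYTL1 (43.5 ± 3.44) and SYTL2 (11.4 ± 0.76). The libraries of these 3 genes did not overlap within either group. SYTL3 held 7.13% to 8.34% of the summed FPKM of the 4 analysed genes in the DMSO libraries and 36.9% to 37.9% in the AI-10-49 libraries.

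YPEL4 differed from the other analysed Yippee-like genes in level. With DMSO it was the lowest of the 4 with a row, below YPEL2 (4.54 ± 0.24 FPKM, SD, n = 3), YPEL5 (18.6 ± 1.96) and YPEL3 (31.4 ± 1.93). With AI-10-49 it stood above YPEL2 (6.83 ± 0.56) and below YPEL5 (29.9 ± 1.71) and YPEL3 (41.0 ± 5.81). YPEL4 went from 1.26% to 2.205% of the summed FPKM of these 4 genes in the DMSO libraries to 14.3% to 15.7% in the AI-10-49 libraries. The 3 tested paralogs rose as well, YPEL5 by 0.66 ± 0.08 (SE, limma adjusted p = 6.68e-06), YPEL2 by 0.50 and YPEL3 by 0.37 on the log2 scale. Family members without a row were not analysed.

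YPEL5 is a part of the CTLH ubiquitin ligase, and genes of that complex were listed with the family. All 8 tested genes of the list rose, of 15 listed (median 0.63, against -0.28), also without AI-10-49 replicate 2. Over all tested rows, 46.2% were higher and 49.1% lower. RANBP9, a scaffold of the complex, rose by 0.77, RANBP10 by 0.59, MKLN1, which encodes muskelin, by 0.80, and WDR26 by 0.39. MORN3 (0.82) was tested through its AI-10-49 mean alone, so its call could only be a rise. It was on the list, though its place in this complex is not settled.

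**Figure D2:**
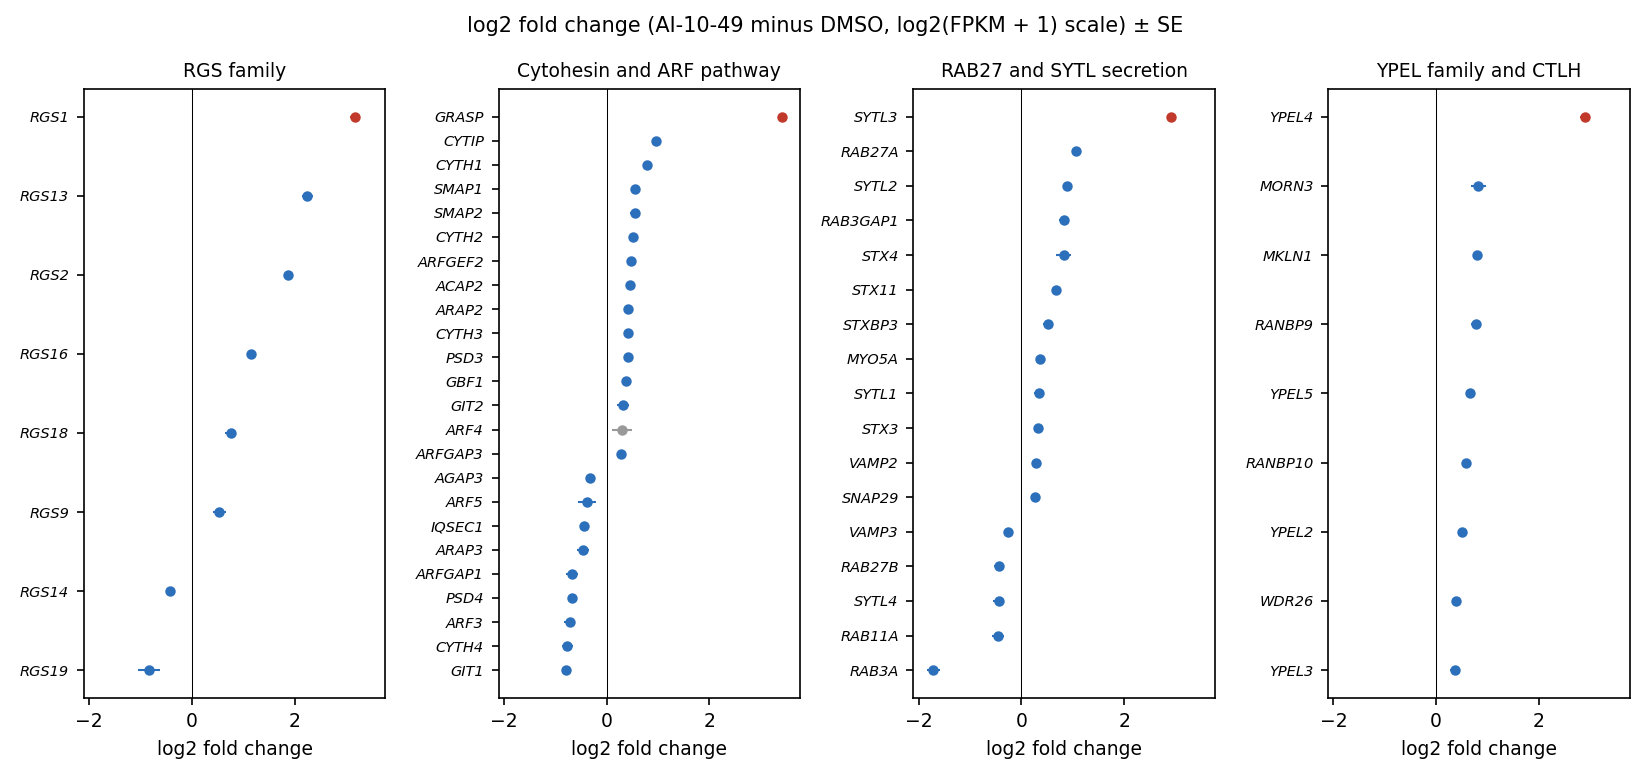
log2 fold change (AI-10-49 minus DMSO, log2(FPKM + 1) scale) with its SE for every tested gene of 4 lists, with RGS1, GRASP, SYTL3 and YPEL4 in red, genes past an adjusted p of 0.05 in blue and ARF4, which did not pass, in grey. The red genes lie between 2.90 and 3.41, a place fixed by their choice, and on this scale RGS13 is next at 2.25, although its ratio of mean FPKM (17.1) was above that of RGS1 (10.99).

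RGS1 lies among other RGS genes in the genome. In RefSeq's order of protein-coding genes its neighbours are RGS18 and RGS21 on one side and RGS13 and RGS2 on the other. RGS21 was not analysed here, and RGS18, RGS13 and RGS2 all rose. The rises were unequal, with ratios of mean FPKM of 1.72 for RGS18, 10.99 for RGS1, 17.1 for RGS13 and 4.30 for RGS2. RGS13 was at most 0.456 FPKM in the DMSO libraries, so its ratio, 10.9 to 25.4 over single libraries, is loosely set. GRASP lies next to NR4A1, which encodes an orphan nuclear receptor induced early after many stimuli. NR4A1 read 5.90, 6.29 and 6.08 FPKM with DMSO and 70.6, 57.9 and 72.5 FPKM with AI-10-49, a log2 fold change of 3.26 ± 0.08 (SE), and came right after GRASP in the ranking of rises. On its other side ACVR1B, an activin receptor gene, fell by 0.25 ± 0.07 (SE) on the log2 scale.

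The tested genes within 3 places of SYTL3 and YPEL4 changed by less or fell. DYNLT1, a dynein light chain gene right beside SYTL3, changed by 0.47. RSPH3 and TMEM181, each 2 places from SYTL3, changed by 0.33 and -0.57. DYNLT1 changed by 0.63 without AI-10-49 replicate 2. RSPH3 did not pass without DMSO replicate 1 or without AI-10-49 replicate 3 (0.27 and 0.28). SERPING1, the C1 inhibitor gene right beside YPEL4, fell by 0.83 on the log2 scale. UBE2L6, an ISG15-conjugating enzyme gene 2 places from YPEL4, fell by 1.02. Of 6 neighbours each, 3 were tested for RGS1, 2 for GRASP, 3 for SYTL3 and 2 for YPEL4. The rest were not analysed, among them EZR right beside SYTL3 and CLP1 right beside YPEL4. Of the 10 tested genes within 3 places of the 4 genes, 6 rose and 4 fell, against the 46.2% higher and 49.1% lower of all tested rows. Those that rose include RGS13, whose call could only be a rise, and RSPH3, whose call did not hold throughout. They also include RGS18 and RGS2, which with RGS13 were counted in the RGS family above.

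**Figure D3:**
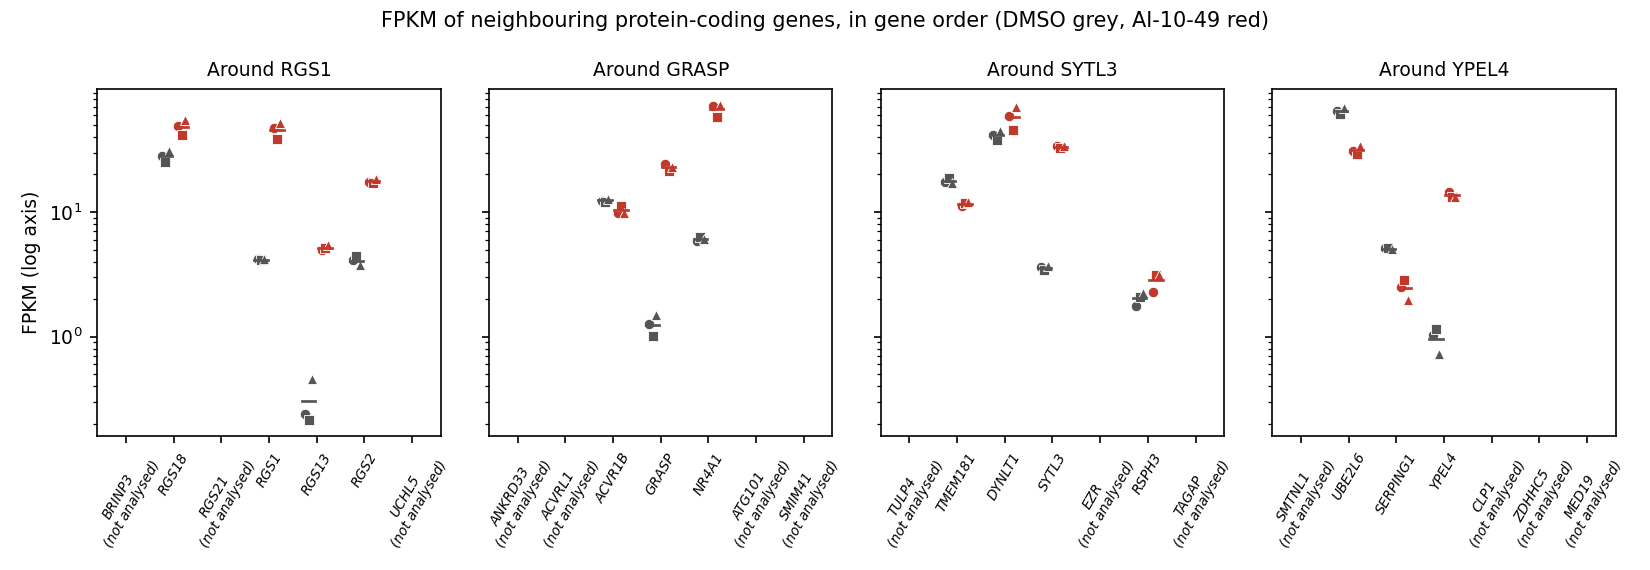
FPKM (log axis) by library of the protein-coding genes within 3 places of each of the 4 genes, in RefSeq gene order and not to genomic scale, with DMSO libraries in grey, AI-10-49 libraries in red and horizontal lines for group means. RGS18, RGS13 and RGS2 around RGS1 and NR4A1 beside GRASP are higher with AI-10-49, while SERPING1 and UBE2L6 near YPEL4 are lower. Genes marked as not analysed have no points.

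Gene span differed widely among the 4, at 4252 bp for RGS1, 4826 bp for YPEL4, 8944 bp for GRASP and 119936 bp for SYTL3 (RefSeq lengths), where the median over 5921 matched rows was 29387 bp. In RefSeq, RGS1 and YPEL4 overlap the long noncoding RNA genes LOC105371664 and MIR130AHG, and GRASP overlaps TAMALIN-AS1. SYTL3 overlaps a pseudogene, AMZ2P2, and a microRNA gene. The labels do not say whether the libraries keep strand, so reads of overlapping genes cannot be told apart.

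The rows whose values over the 6 libraries ran most like those of each gene were found by Euclidean distance between log2(FPKM + 1) profiles centred on their means. A distance of 0 means equal steps between all libraries. For RGS1 the nearest were NR4A1 (distance 0.150), RELB (0.307) and NR4A2 (0.331). For GRASP they were ATF3 (0.289), NR4A1 (0.353) and RGS1 (0.422). SYTL3 was nearest to SESN2 (0.192), BIRC3 (0.198) and NR4A2 (0.229), and YPEL4 to CHAC1 (0.171), BIRC3 (0.248) and SYTL3 (0.299). As background, NR4A1, NR4A2 and ATF3 encode transcription factors induced early after stimuli, RELB and BIRC3 belong to the NF-kB system, and SESN2 and CHAC1 are known as genes of the amino acid and stress response. Among the 4 genes themselves, SYTL3 and YPEL4 were closest (0.299) and GRASP and YPEL4 farthest apart (0.772). With 2 groups of 3 libraries, these distances mostly compare the size of the rise. The genes named as near were picked for likeness, so no further likeness is read from them. AI-10-49 replicate 2 reads low where FPKM are high, and its part in these distances was not tested.

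**Figure D4:**
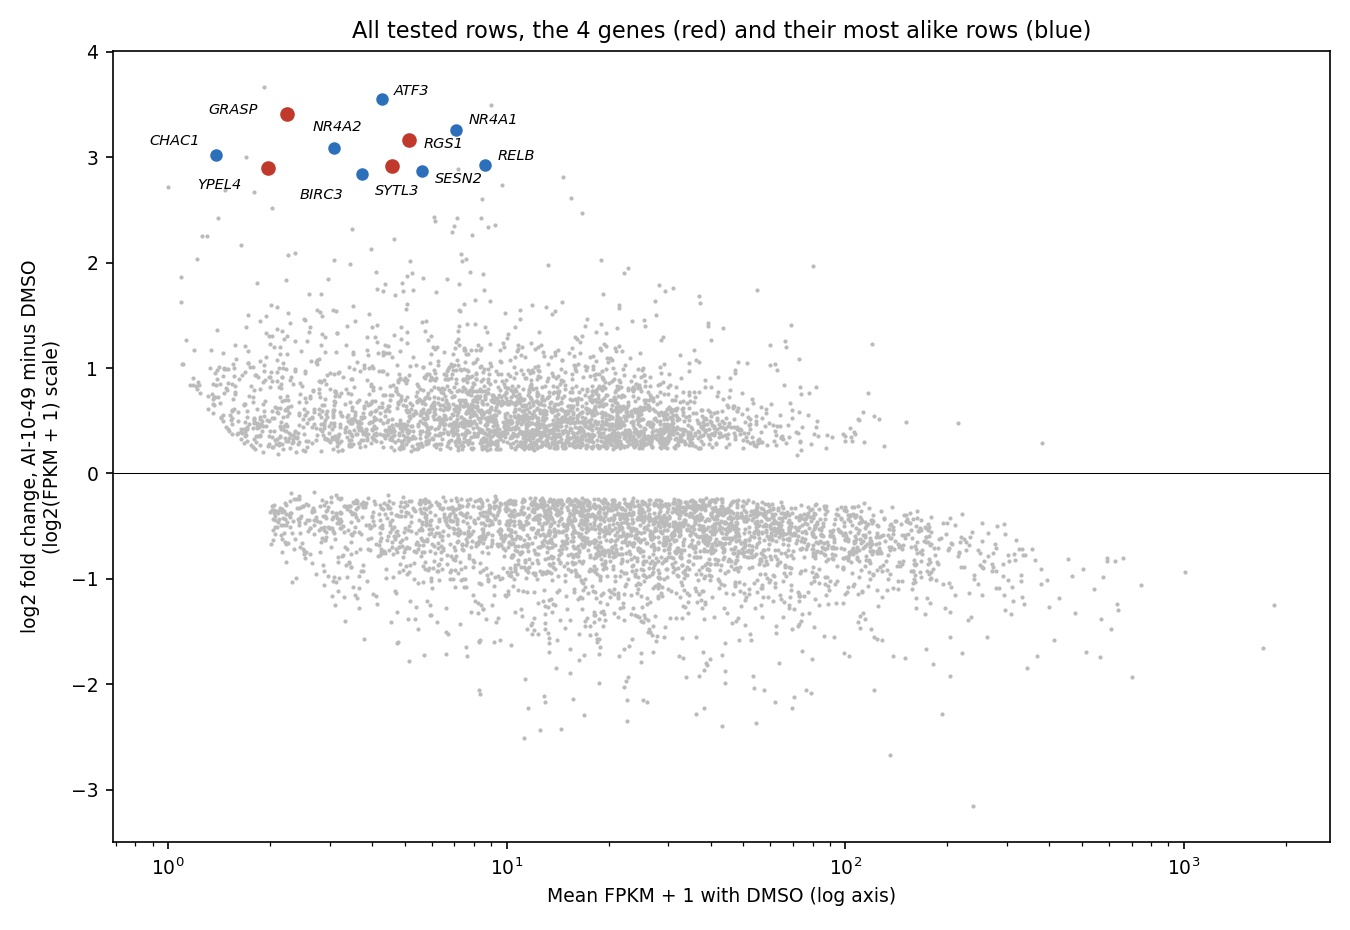
log2 fold change (AI-10-49 minus DMSO, log2(FPKM + 1) scale) against mean FPKM + 1 with DMSO (log axis) for the 6230 tested rows (small grey points), with RGS1, GRASP, SYTL3 and YPEL4 in red and the 7 other genes nearest to them in profile in blue. The 4 genes lie between 2.90 and 3.41 at DMSO means of 0.966 to 4.15 FPKM, and few rows are found near 0 in this table of selected rows.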

How the data were processed

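RNA-seq libraries of 90 bp paired-end reads were made from ME-1 cells, 3 with DMSO and 3 with AI-10-49. Reads were handled with Bowtie2 (2.1.0), Cufflinks (2.2.0) and Cuffdiff on hg19, per the submitters' processing notes. The authors deposited FPKM for 6339 rows in 6 columns. No source used here states how the rows were selected, and library depth is unknown. log2(FPKM + 1) was fitted across the 6230 rows whose mean reached 1 FPKM in a group (109 were left out) by limma 3.58.1 in R 4.3.3, with a mean-variance trend, two-sided tests and Benjamini-Hochberg adjustment, threshold 0.05. The fit was run on simulated data in which few rows changed and noise was equal in all libraries. This table differs from that in both, so the run says little about the calls here. The genes, the gene lists and the tests were chosen with earlier results of these data known. Named genes were the 4 genes, tested paralogs, up to 5 further genes of largest change per list, the 3 most alike profiles and the rows next in rank. Genome neighbours, promoter patterns and 11 further genes were added after the data were seen. Genes named only for the filter or for their part in a summed level stand outside these rules. Gene order, spans and sequences came from RefSeq (GRCh38.p14), another build than the authors', so spans were used as lengths only. Of tested rows 95.0% had a span. Alternatives were other pseudocounts, filters, scalings, a replicate block, no trend and leaving out each library. Python 3.11.15, pandas 2.3.3, NumPy 2.4.6 and Matplotlib 3.10.9 were used.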

Additional observations from a re-analysis of the deposited data

How the results depend on the processing

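The alternatives, like the tests, were set with earlier results of these data known. With 0.1 added before taking logs the log2 fold changes of RGS1, GRASP, SYTL3 and YPEL4 were 3.42, 4.10, 3.19 and 3.70, and with 0.5 those of GRASP, SYTL3 and YPEL4 were 3.75, 3.06 and 3.28, since a smaller constant damps low values less by construction. Quantile normalization without AI-10-49 replicate 2 gave 3.35 for RGS1. Leaving out single libraries gave 3.08 to 3.28 for RGS1, 3.33 to 3.49 for GRASP, 2.89 to 2.94 for SYTL3 and 2.81 to 2.96 for YPEL4. A filter at 5 FPKM left 9 receptor genes higher instead of 14, since fewer were tested. Every other count of a list stayed within 1.5 times its main value under each alternative, and tested rows numbered 2375 to 2928 higher and 2643 to 3175 lower. Among 968 values of 65 further genes, 3 fell short of the threshold, all in RSPH3, and 10 passed where the main value did not, in ARF4, GNA15, GNAI2 and SPI1. SPI1, which was not called, turned to 0.083 under quantile normalization and to 0.065 with AI-10-49 replicate 2 also left out. No called gene reversed. The replicate number as a block cannot move a fold change in this balanced design (3.17 for RGS1). With it no list count changed, and 2912 rows were higher and 3103 lower. Deviations of same-numbered libraries correlated across rows at r = -0.15, 0.147 and 0.247, so the numbers were not treated as pairs. With library depth unknown, the precision of low FPKM, as in GRASP, YPEL4 and RGS13 with DMSO, rests on 3 libraries alone.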
